A study of Mus musculus with 16 samples.

Results

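The interleukin 10 (IL-10) and transforming growth factor beta (TGF beta) axis was followed through 8 genes: the cytokine Il10, its receptor chains Il10ra and Il10rb, the cytokine Tgfb1, its receptors Tgfbr1 and Tgfbr2, and the intracellular mediators Smad3 and Smad7. They were selected by gene symbol, with earlier results of these data known, and the selection rule itself uses no measured value. The 8 genes are represented by 19 probe sets, of 34945 probe sets that name a single gene, and they are 8 of 18193 genes tested. Each gene was read from its probe set with the highest mean.

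Bone marrow of wild-type C57BL/6 mice was cultured with granulocyte-macrophage colony-stimulating factor (GM-CSF), and the immature, non-adherent dendritic cells were collected; strain, GM-CSF and medium were common to all 6 groups. The treated cells received the probiotic gut bacterium Lactobacillus acidophilus, strain NCFM, at a final 10 µg/ml, and were lysed after 4, 10 or 18 h. Controls of each time received no bacteria. There were 3 arrays in each NCFM group and in the 4 h controls, and 2 in each of the 10 h and 18 h controls, and this number sets the precision. No label states that replicates are separate animals or cultures. The p-values then reflect only the spread among these samples, part of which may be technical. That spread includes a difference in X- and Y-linked transcripts between arrays numbered 1 and their partners, given below, whose source was not tested.

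IL-10 is a cytokine of myeloid and T cells that restrains inflammatory gene expression. It binds a receptor made of Il10ra, which is specific to IL-10, and Il10rb, which other cytokines of the family share, and the receptor signals through the kinases Jak1 and Tyk2 to the transcription factor Stat3. TGF beta is secreted in a latent form and released by integrins and proteases. It then binds Tgfbr2, which recruits and activates Tgfbr1, and Tgfbr1 phosphorylates Smad2 and Smad3, which enter the nucleus with Smad4. Smad7 is an inhibitory SMAD that blocks Tgfbr1 and is itself a target gene of the pathway. In dendritic cells both cytokines are known for limiting maturation and for roles in tolerance.

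For 4 of the 8 genes promoter windows were searched here (RefSeq, build GRCm38.p6). The 3 printed here belong to the TGF beta ligand and its receptor pair, whose transcripts were all lower in NCFM cells at 10 and 18 h. Each run is the 250 bases before the annotated start, 5′ to 3′ on the gene's strand. Capitals mark every match to the Sp1 box GGGCGG or the SMAD box CAGAC on either strand.
Tgfb1, chr7:25686752-25687001, plus strand: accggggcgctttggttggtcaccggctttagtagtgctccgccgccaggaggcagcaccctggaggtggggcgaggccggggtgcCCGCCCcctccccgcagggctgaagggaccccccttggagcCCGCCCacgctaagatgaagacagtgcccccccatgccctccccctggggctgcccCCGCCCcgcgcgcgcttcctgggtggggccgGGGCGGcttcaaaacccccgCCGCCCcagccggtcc
Tgfbr1, chr4:47352972-47353221, plus strand: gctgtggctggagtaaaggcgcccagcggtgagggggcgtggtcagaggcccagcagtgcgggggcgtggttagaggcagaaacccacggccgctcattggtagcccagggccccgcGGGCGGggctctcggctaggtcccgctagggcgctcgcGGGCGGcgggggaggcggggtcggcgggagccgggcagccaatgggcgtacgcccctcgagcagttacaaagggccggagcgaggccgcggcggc
Tgfbr2, chr9:116175364-116175613, minus strand: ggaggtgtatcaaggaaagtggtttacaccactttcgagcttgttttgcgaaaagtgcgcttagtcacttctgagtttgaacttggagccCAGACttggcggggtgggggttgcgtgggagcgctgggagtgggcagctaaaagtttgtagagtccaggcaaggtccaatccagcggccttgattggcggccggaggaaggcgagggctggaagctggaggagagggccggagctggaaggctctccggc
The Tgfb1 run is 75.2% G and C, the Tgfbr1 run 74.8% and the Tgfbr2 run 58.4%. Motifs were counted on both strands in the whole RefSeq window, which runs on for 50 bases after the start. The Tgfb1 window held 6 Sp1 boxes, of which 5 lie in the printed run. The Tgfbr1 window held 2, starting 133 and 95 bases before the start. An Sp1 box was present in 35.7% of all 32851 promoter windows of this length. The Tgfbr2 window had no Sp1 box, 1 SMAD box 160 bases before the start and 1 C/EBP motif TTNCNNAA 205 bases before it. The SMAD box was present in 49.6% of all windows and the C/EBP motif in 40.7%. A second Tgfbr1 window and the Smad3 window were searched as well. The Smad3 window, of a gene not called at any time, held 2 Sp1 boxes. The second Tgfbr1 window held no Sp1 box, 1 SMAD box and 1 C/EBP motif. None of the 5 windows held a STAT motif TTCNNNGAA (8.3% of all windows), a cAMP response element TGACGTCA (1.79%), an AP-1 motif TGANTCA (7.81%) or the NF-kB consensus (4.51%). No window of Il10, Il10ra, Il10rb or Smad7 was searched, so these counts do not cover those genes. A match describes letters only.

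Median intensity was between 162 and 167 on every array, and the lowest correlation between arrays of a group was 0.97. Within each group the array numbered 1 stood apart from its partners. It had less Xist (mean log2 difference -4.32) and more Eif2s3y (3.89), which are X- and Y-linked transcripts, in 6 of 6 groups. Among the genes of the axis, Tgfbr2 and Smad3 were lower on number 1 than on its partners in 6 of 6 groups, by means of -0.39 and -0.30, and Il10rb in 5 of 6, by -0.57. Calls among the 8 genes that change without these arrays are given with and without them. Leaving them out leaves the 10 and 18 h controls with 1 array each, assumed to vary like the other groups, which limits the p-values so obtained. Of all genes, 18.3% were called at 4 h, 24.7% at 10 h and 23.7% at 18 h, where called means an adjusted p under 0.05 in limma. Of the called genes, 71.2%, 66.7% and 68.8% were lower. This split was 58.1%, 50.1% and 51.4% after quantile normalization, and 12.3%, 89.2% and 72.5% after centring on 18 spike-in control probe sets, which shifted the median of all genes by 0.23 at 4 h and -0.24 at 10 h on the log2 scale. The called counts, 3335, 4488 and 4320, were 2138 without the 4 h control replicate 2, 2207 without the 4 h control replicate 3, 2134 without the 10 h control replicate 1 and 2868 without the 18 h control replicate 2.

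The dendritic cell gene Itgax had intensities of 1654 to 5478, above 94.2% of the probe sets of its array or more. Of the other dendritic cell markers, H2-Ab1 (11292 to 15511) and Cd74 (19181 to 24211) had higher ranges. Lower ranges were seen for Irf4 (566 to 2811), Batf3 (698 to 1929), Dpp4 (218 to 1042), Zbtb46 (306 to 955), Flt3 (307 to 427) and Cd209a (146 to 241). The macrophage and monocyte genes Csf1r, Cd14, Cd68 and Fcgr1 were also above 94.7% or more of the probe sets (3033 to 19214 for Cd14). Adgre1 (1227 to 5060), Mertk (591 to 2071) and Mrc1 (81 to 1646) reached lower levels. The markers thus do not separate dendritic cells from macrophages in these cultures. Fcgr1 was higher and the macrophage gene Mrc1 lower in NCFM cells at all 3 times, Itgax was lower at 10 and 18 h and Cd74 at 18 h. Among markers of other cells, Mertk (macrophages) and Il2ra (T cells) were higher and Elane (neutrophils) lower at 10 h, and Ms4a2 (mast cells) and Prf1 (NK cells) were higher and Kit (mast cells) lower at 18 h. Over all arrays Ms4a2 read only 105 to 134 and Prf1 141 to 169, neither above more than 51.2% of the probe sets. Summed over the markers measured, arrays held 35348 to 47930 for 9 of 9 dendritic cell genes and 23852 to 52443 for 7 of 8 macrophage and monocyte genes. Among T cell markers, 7 of 8 were measured and 3 (Cd3g, Cd8b1 and Foxp3) lay under the array median in every group. Cd79a and Cd79b of the 6 measured B cell markers did so too, as did Mcpt4, Fcer1a and Ms4a2 of 7 mast cell and basophil markers. The summed levels were 1392 to 2157, 1164 to 1572 and 1191 to 1643, and 585 to 654 for 5 NK cell markers. Summed intensity of the 6 measured neutrophil markers was 13816 to 28580 in control arrays and 4447 to 21547 in NCFM arrays, with S100a8 between 1595 and 17997. The part of these cells in the results below was not tested. RNA was taken from whole cultures, so fewer cells of a type and less RNA per cell cannot be told apart.

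By the brightest probe set of each gene, NCFM cells had more Il10 transcript at 10 and 18 h than control cells. By the same measure they had less Tgfbr1 and Tgfbr2 transcript at every time. Of the 8 genes, 3 were called at 4 h (1 higher, 2 lower), 4 at 10 h (1 higher, 3 lower) and 5 at 18 h (2 higher, 3 lower), against 5.27%, 8.21% and 7.4% of all genes called higher and 13.1%, 16.5% and 16.3% called lower. Tgfbr1 and Tgfbr2 were lower at all 3 times. Il10rb and Smad3 were called at none. Without the 18 h control replicate 2 fewer were called at 18 h, and without the 6 arrays numbered 1 more were. Each of these fits leaves 1 control array at 18 h, assumed to vary like the other groups.

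**Figure D1:**
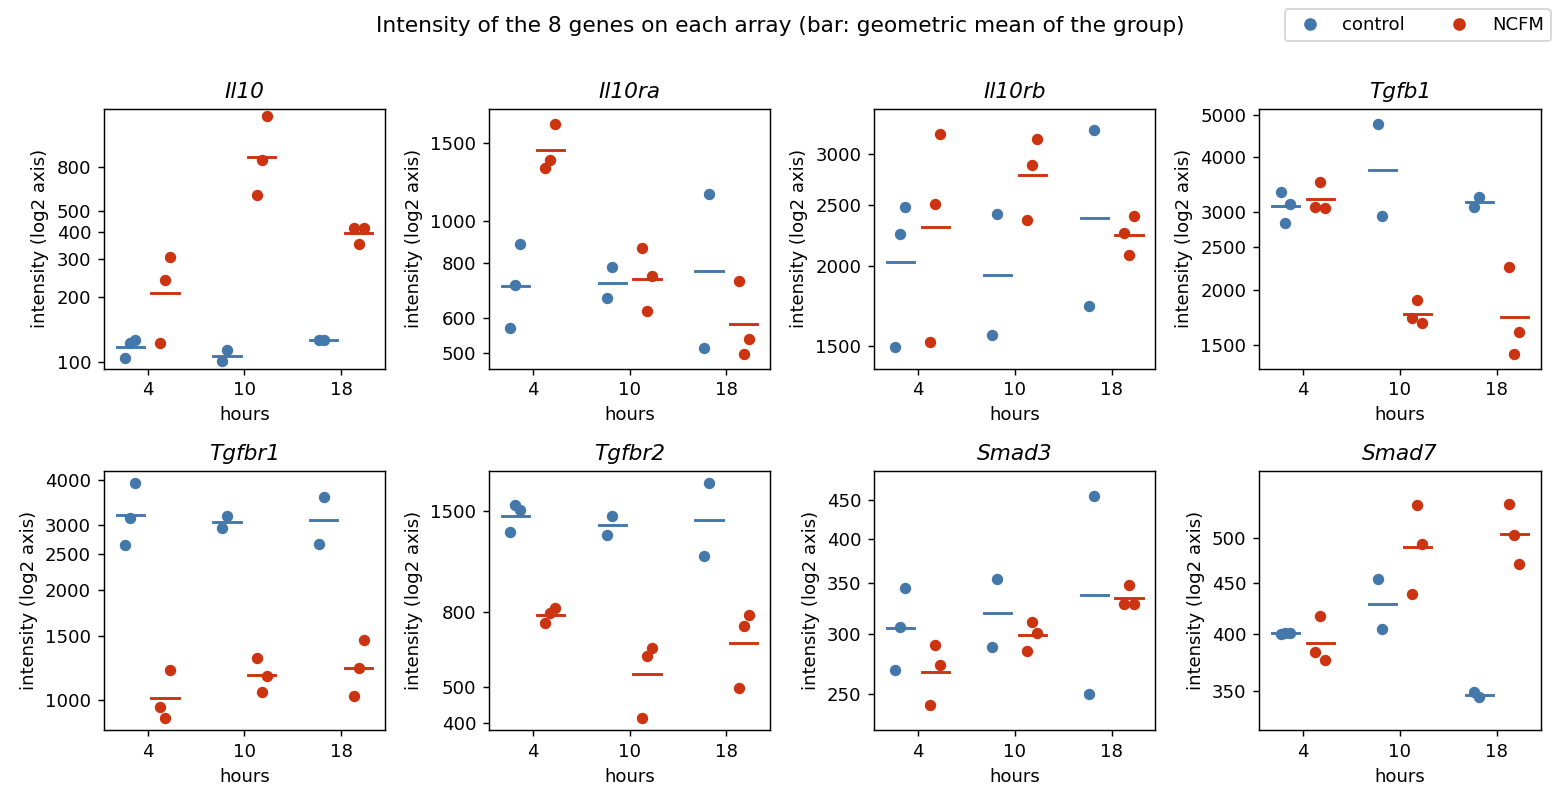
Intensity of each of the 8 genes on each of the 16 arrays, by time in hours, on a log2 axis with its own range for each gene. Points are arrays, colours the treatment and bars the geometric mean of a group; for Il10 at 10 h the 3 NCFM arrays (592 to 1369) lie above both control arrays (101 and 114), and for Tgfbr1 all NCFM arrays lie below all control arrays at each time.

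Il10 (probe set 1450330_at) encodes the cytokine itself. Its intensity in control cells was 105, 123 and 127 at 4 h, 101 and 114 at 10 h, and 127 on both arrays at 18 h. These levels were low in the range of the arrays, above 23.1% to 36.9% of the probe sets, near the first quartile of 104 to 108. In NCFM cells it was 123, 240 and 306 at 4 h, then 592, 862 and 1369 at 10 h, then 416, 352 and 419 at 18 h. At 4 h replicate 1 lay within the control range while the other two lay above it, and at 10 and 18 h every NCFM array lay above every control array, a separation upward that 23.2% and 21.1% of all genes showed.

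The log2 change of Il10 was 0.82 ± 0.31 (SE, n = 3 and 3; 95% interval 0.14 to 1.5; limma adjusted p = 0.0939) at 4 h. It rose 8.27-fold at 10 h, by 3.05 ± 0.35 on the log2 scale (n = 3 and 2; limma adjusted p = 8.94e-05), and 3.11-fold at 18 h, by 1.63 ± 0.35 (limma adjusted p = 0.00517). The 10 and 18 h calls held in all 28 alternatives. Many of these, such as leaving out an array of another time, cannot move the estimate and change only its adjusted p. The 4 h value passed with spike-in centring (1.06, adjusted p = 0.0184 in limma), with the replicate block (0.82, 0.0218), without the arrays numbered 1 (1.12, adjusted p = 0.0107) and without NCFM replicate 1 at 4 h alone (1.20, adjusted p = 0.0104), over a range of 0.0104 to 0.308. Because control levels sit near the background, a fold change of the intensity may understate the change of the transcript. How background was treated in the deposited values is not known, and the 5th percentile is only a stand-in for it. After subtraction of each array's 5th percentile, controls were 35 to 62 and the 10 h NCFM arrays 525, 795 and 1302. The log2 changes were then 1.35 (limma adjusted p = 0.0705), 4.32 (2.13e-04) and 2.41 (0.00669) at 4, 10 and 18 h.

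Over time in NCFM cells, Il10 at 10 h exceeded Il10 at 4 h by 2.09 ± 0.31 on the log2 scale (limma adjusted p = 0.00236), where 6.28% of all genes were called and 2.4% called higher. With only these 2 groups fitted the adjusted p was 0.0611. From 10 to 18 h the difference was -1.17 ± 0.31 (limma adjusted p = 0.0746), where 2.79% of all genes were called. It passed with the replicate block (adjusted p = 0.0125 in limma), without the arrays numbered 1 (-1.50, 0.013), and without 1 array, which was NCFM replicate 1 at 4 h (0.0255), replicate 3 at 4 h (0.0495) or replicate 1 at 10 h (-1.46, 0.0389). The NCFM effect itself was 2.23 ± 0.47 larger at 10 h than at 4 h (limma adjusted p = 0.0677, against 0.506% of all genes called). This difference passed with spike-in centring (1.74, adjusted p = 0.0149 in limma), with the replicate block (2.06, 0.0174), without the arrays numbered 1 (2.14, 0.0399), without NCFM replicate 3 at 4 h (2.50, 0.0485) and without NCFM replicate 1 at 10 h (2.52, 0.0271). The 18 h and 10 h effects differed by -1.41 ± 0.50, with a limma adjusted p of 0.483, where 0.0055% of all genes were called.

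**Figure D2:**
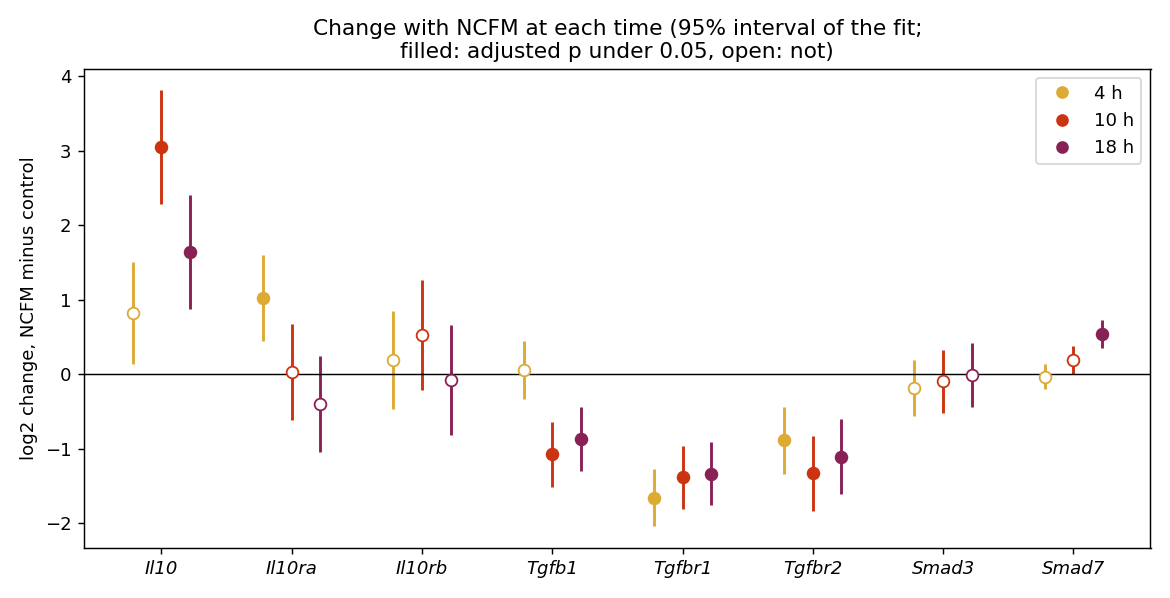
Log2 ratio of NCFM to control for each gene at 4, 10 and 18 h; points are the limma estimates, bars their 95% intervals, filled points those with adjusted p under 0.05 and the line at 0 no difference. Il10 lies highest at 10 h (3.05), Tgfbr1 lies below 0 at each time (-1.66, -1.39 and -1.34), and the Smad3 intervals include 0 at each time.

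Il10ra (1448731_at), the ligand-specific receptor chain, was higher in NCFM cells at 4 h. Intensity in control cells was 570, 713 and 884 at 4 h, 669 and 783 at 10 h, and 513 and 1148 at 18 h. NCFM cells had 1322, 1378 and 1662 at 4 h, 866, 622 and 749 at 10 h, and 731, 498 and 539 at 18 h. All 4 h NCFM arrays lay above all controls of that time, a separation upward that 13.8% of all genes showed, and the groups overlapped at 10 and 18 h.

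The 4 h rise of Il10ra was 1.03 ± 0.26 on the log2 scale (n = 3 and 3; limma adjusted p = 0.0182). Its adjusted p was 0.064 without NCFM replicate 3, 0.0675 without control replicate 1, 0.0558 without control replicate 2, and 0.0897 with only arrays 1 and 2 and the replicate block, over a range of 0.0031 to 0.0897. The changes were 0.03 ± 0.30 at 10 h (interval -0.62 to 0.68; limma adjusted p = 0.95) and -0.40 ± 0.30 at 18 h (interval -1.05 to 0.24; limma adjusted p = 0.368). The 18 h controls are the widest pair, and the 18 h change was -0.98 (limma adjusted p = 0.024) without control replicate 1 of that time and -1.15 (0.00357) without the arrays numbered 1. The effect at 18 h differed from that at 4 h by -1.43 ± 0.40 (limma adjusted p = 0.0761, against 3.4% of all genes called). That difference passed with spike-in centring (-1.67, adjusted p = 0.0245 in limma), with dim genes left out (0.049), with the replicate block (-1.48, 0.0471), without the arrays numbered 1 (-2.08, 0.00553) and without control replicate 1 at 18 h (-2.01, 0.0123). The 10 and 4 h effects differed by -0.995 (limma adjusted p = 0.381), which passed with spike-in centring (-1.48, 0.0191). Within NCFM cells, Il10ra at 10 h differed from 4 h by -0.97 (limma adjusted p = 0.0511), which passed with spike-in centring (-1.29, 0.00402), dim genes left out (0.0325), trend and robust variance (0.045), only the groups compared (0.0292) and the replicate block (0.0382), without the arrays numbered 1 (-1.15, 0.00363), without NCFM replicate 1 at 18 h (0.047) and without either 18 h control (0.0112).

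Il10rb (1419455_at), the shared receptor chain, did not pass the test at any time. Its control intensities were 1494, 2251 and 2482 at 4 h, 1561 and 2413 at 10 h, and 1732 and 3266 at 18 h. NCFM cells had 1521, 2504 and 3227 at 4 h, 2368, 2880 and 3165 at 10 h, and 2255, 2083 and 2402 at 18 h. The ranges overlapped at each time, and number 1 was the lowest array in 5 of 6 groups. The changes were 0.19 ± 0.30 (interval -0.47 to 0.85), 0.52 ± 0.34 (-0.22 to 1.26) and -0.08 ± 0.34 (-0.82 to 0.65), with limma adjusted p of 0.725, 0.288 and 0.888. The intervals do not show equal levels. Without the arrays numbered 1, the 18 h value was -0.55 (limma adjusted p = 0.0466).

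Tgfb1 (1420653_at), the ligand of the second branch, did not pass the test at 4 h and was lower in NCFM cells at 10 and 18 h. Control arrays read 3341, 2839 and 3129 at 4 h, 4762 and 2936 at 10 h, and 3089 and 3258 at 18 h. NCFM cells had 3081, 3511 and 3074 at 4 h, 1730, 1899 and 1683 at 10 h, and 2260, 1433 and 1607 at 18 h. The groups overlapped at 4 h and did not at 10 and 18 h, a separation downward that 28.9% and 26.1% of all genes showed.

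The 4 h change of Tgfb1 was 0.05 ± 0.18 (interval -0.33 to 0.44; limma adjusted p = 0.871). Tgfb1 fell 2.11-fold at 10 h, by -1.08 ± 0.20 on the log2 scale (n = 3 and 2; limma adjusted p = 0.00199), and 1.83-fold at 18 h, by -0.87 ± 0.20 (limma adjusted p = 0.00725). The 10 h call held in all 29 alternatives, at -0.72 without the arrays numbered 1. The 18 h call was lost without control replicate 2 of that time (-0.83, limma adjusted p = 0.0519), with only the groups compared (0.0605) and with the mean of the gene's probe sets (-0.45, 0.0593). Within NCFM cells, Tgfb1 at 10 h was lower than at 4 h by -0.86 ± 0.18 (limma adjusted p = 0.0141, against 3.88% of all genes called lower), which did not pass without NCFM replicate 2 at 4 h (-0.80, 0.0518), without NCFM replicate 3 at 10 h (-0.83, 0.0618), with the mean of the probe sets (-0.51, 0.0585), or with only arrays 1 and 2 and the replicate block (0.0934). The effects at 10 h and 18 h differed from the 4 h effect by -1.14 ± 0.27 (limma adjusted p = 0.0963) and -0.93 ± 0.27 (0.0846), and both passed with the replicate block (-1.11, 0.0462 and -0.90, 0.0485) and with spike-in centring (-1.62, 0.00836 and -1.17, 0.0465). Leaving out NCFM replicate 1 at 18 h also passed both (-1.14, 0.0465 and -1.12, 0.0212), as did leaving out control replicate 2 at 10 h (-1.48, 0.0236 and -0.93, 0.0384). The later difference passed without control replicate 1 at 10 h (-0.93, 0.0384) and without the arrays numbered 1 (-1.24, 0.00868).

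Tgfbr1 (1420895_at), the signalling receptor, was lower in NCFM cells at every time. The control intensities were 2656, 3149 and 3915 at 4 h, 2958 and 3178 at 10 h, and 2677 and 3596 at 18 h. NCFM cells had 958, 896 and 1210 at 4 h, 1304, 1055 and 1167 at 10 h, and 1030, 1228 and 1460 at 18 h. The highest NCFM array of any time, at 1460, was below the lowest control array, at 2656. Within a single time, 22.7% of all genes separated downward at 4 h, 28.9% at 10 h and 26.1% at 18 h. No share was counted for a separation over all times together.

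Tgfbr1 fell 3.16-fold at 4 h, by -1.66 ± 0.17 on the log2 scale (limma adjusted p = 6.2e-05), 2.62-fold at 10 h, by -1.39 ± 0.20 (3.44e-04), and 2.53-fold at 18 h, by -1.34 ± 0.20 (4.58e-04). These calls held in all 29 alternatives. The effects differed between 10 and 4 h by 0.27 ± 0.26 (limma adjusted p = 0.815) and between 18 and 4 h by 0.32 ± 0.26 (0.653).

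Tgfbr2 (1426397_at), the ligand-binding receptor, was also lower at every time. Control cells had intensities of 1312, 1560 and 1510 at 4 h, 1294 and 1451 at 10 h, and 1133 and 1783 at 18 h. NCFM cells had 744, 792 and 820 at 4 h, 413, 609 and 640 at 10 h, and 499, 730 and 782 at 18 h. Every NCFM array lay below every control array, and number 1 was the lowest array of its group in all NCFM groups. Within a single time, 22.7%, 28.9% and 26.1% of all genes separated downward at 4, 10 and 18 h.

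Tgfbr2 fell 1.86-fold at 4 h, by -0.89 ± 0.21 on the log2 scale (limma adjusted p = 0.0105), 2.52-fold at 10 h, by -1.33 ± 0.23 (0.00141), and 2.16-fold at 18 h, by -1.11 ± 0.23 (0.00435). The 4 and 10 h calls held in all 29 alternatives. The 18 h call was lost without control replicate 2 of that time (-0.78, limma adjusted p = 0.0648) and with only the groups compared (0.0715). Within NCFM cells the 10 h level differed from the 4 h level by -0.53 (limma adjusted p = 0.185), which passed with spike-in centring (-0.85, 0.00415), with the replicate block (0.0126) and without the arrays numbered 1 (-0.37, 0.0114). The 10 and 4 h effects differed by -0.44 ± 0.31 (limma adjusted p = 0.708), or by -0.93 (0.0212) with spike-in centring.

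Smad3 (1454960_at), a receptor-activated SMAD, did not pass the test. Controls had intensities of 269, 306 and 345 at 4 h, 288 and 354 at 10 h, and 250 and 455 at 18 h. NCFM cells had 242, 290 and 273 at 4 h, 285, 311 and 301 at 10 h, and 328, 348 and 328 at 18 h, overlapping the controls throughout. The changes were -0.19 ± 0.17 (interval -0.57 to 0.19), -0.10 ± 0.20 (-0.52 to 0.33) and -0.01 ± 0.20 (-0.44 to 0.41), with limma adjusted p of 0.506, 0.752 and 0.973. Without the arrays numbered 1, the 18 h value was -0.43 (limma adjusted p = 0.0152).

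Smad7 (1423389_at), the inhibitory SMAD, was higher in NCFM cells at 18 h. Controls had intensities of 400, 401 and 401 at 4 h, 454 and 404 at 10 h, and 349 and 345 at 18 h. NCFM cells had 383, 417 and 376 at 4 h, 439, 540 and 493 at 10 h, and 541, 503 and 470 at 18 h. At 18 h all NCFM arrays lay above both controls, a separation upward that 21.1% of all genes showed, while at 4 and 10 h the groups overlapped.

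Smad7 rose 1.45-fold at 18 h, by 0.54 ± 0.09 on the log2 scale (limma adjusted p = 9.62e-04), in all 29 alternatives. The changes were -0.03 ± 0.08 at 4 h (interval -0.20 to 0.14; limma adjusted p = 0.819) and 0.19 ± 0.09 at 10 h (0.136). The 10 h value passed without NCFM replicate 1 of that time (0.27, limma adjusted p = 0.0348), without the arrays numbered 1 (0.35, 0.0381), with the mean of the probe sets (0.40, 0.0121) and after quantile normalization (0.40, 0.00931), and was -0.06 with spike-in centring. The 18 h effect exceeded the 4 h effect by 0.57 ± 0.12 (limma adjusted p = 0.0216, against 1.19% of all genes called higher), which was the single gene of the 8 called in any difference of the NCFM effect between times. That call was lost in 9 of 29 alternatives. They were spike-in centring (0.33, limma adjusted p = 0.314), the arrays numbered 1 left out (0.0527), only arrays 1 and 2 with the replicate block (0.0944), and any 1 of 6 arrays left out. Those arrays were NCFM replicate 3 at 4 h (0.0506), NCFM replicate 2 at 18 h (0.0563), control replicates 2 and 3 at 4 h (0.0571 and 0.0517) and control replicates 1 and 2 at 18 h (0.0589 and 0.061). Within NCFM cells, Smad7 at 10 h exceeded Smad7 at 4 h by 0.32 ± 0.08 (limma adjusted p = 0.0325), over a range of 0.0103 to 0.996, and the difference was -0.000757 with spike-in centring. It did not pass without NCFM replicate 1 (0.0906) or 3 at 4 h (0.113), or without NCFM replicate 2 (0.14) or 3 at 10 h (0.109). Nor did it pass with trend and robust variance (0.0586), with only the groups compared (0.132) or with arrays 1 and 2 and the replicate block (0.234).

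In control cells, no gene of the 8 and none of all tested (0%) was called by limma between 18 and 4 h. Of 18193 genes, 559 had an unadjusted limma p under 0.05, a smaller share than this threshold gives without any change. With 2 control arrays at 18 h and 3 at 4 h, changes over time can be missed. The time courses above are given mainly against the controls of the same time.

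The 11 further probe sets of these genes were dimmer and often showed smaller changes. The second Tgfb1 probe set, 1445360_at, had a log2 change of -0.63 ± 0.16 at 10 h (limma adjusted p over all probe sets 0.0128) and -0.03 ± 0.16 at 18 h (0.916), so the 2 probe sets of Tgfb1 disagreed at 18 h. The second Smad7 probe set, 1443771_x_at, rose by 0.60 ± 0.14 at 10 h (limma adjusted p over all probe sets 0.0089) and by 0.76 ± 0.14 at 18 h (0.00232). For Tgfbr2, 1425444_a_at had -0.26 ± 0.08 at 10 h (limma adjusted p over all probe sets 0.0427) at intensities of 171 to 237. Its changes at 4 and 18 h were -0.003 (0.986) and 0.11 (0.399), so the Tgfbr2 probe sets disagreed at those times. The third, 1422019_at, stayed between 65 and 76. The other 2 Tgfbr1 probe sets lay between 110 and 187. At 4, 10 and 18 h, 1420894_at had -0.27, -0.30 and -0.41 and 1420893_a_at -0.03, -0.06 and 0.00, none of which passed. The 2 further Il10ra probe sets had 4 h changes of 0.09 and 0.08 (limma adjusted p over all probe sets 0.602 and 0.322). Averaging the probe sets of a gene gave smaller changes of -0.66, -0.58 and -0.58 for Tgfbr1, -0.31, -0.51 and -0.30 for Tgfbr2 and 0.40 for Il10ra at 4 h. For Smad7 at 10 h it gave a larger one, 0.40 against 0.19.

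**Figure D3:**
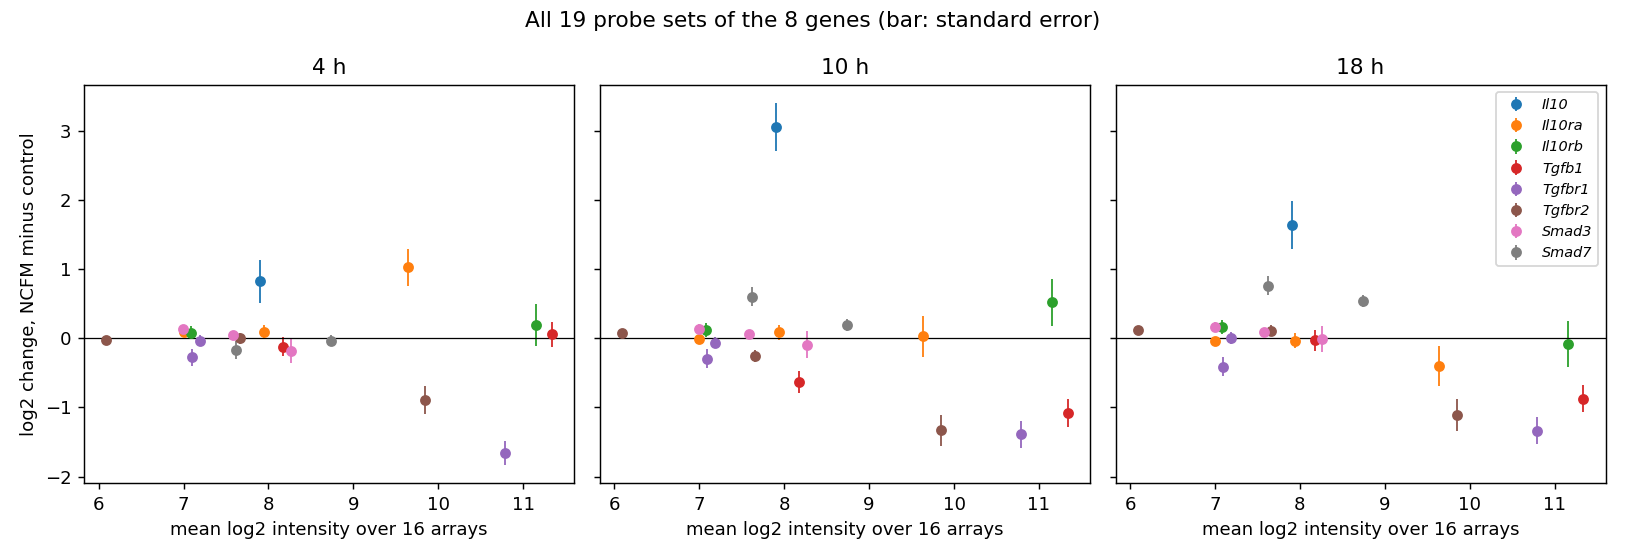
Log2 change of NCFM minus control (y axis) against mean log2 intensity over the 16 arrays (x axis) for all 19 probe sets of the 8 genes, in a panel for each time; colours are genes and bars the standard error of the limma fit. For each gene the probe set farthest to the right is the one used in the text: for Tgfb1 it lies at -0.87 at 18 h and the dimmer one at -0.03, and for Smad7 both lie above 0 at 18 h.

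The rest of the 2 pathways was read from lists of 109 genes, of which 97 were measured. Of these, 22 were called at 4 h (17 higher, 5 lower), 30 at 10 h (23 higher, 7 lower) and 31 at 18 h (24 higher, 7 lower), and 44 were called at 1 or more times. Of all genes, 18.3%, 24.7% and 23.7% were called, with 5.27%, 8.21% and 7.4% higher and 13.1%, 16.5% and 16.3% lower, and these shares are also the background of each list that follows. With the replicate block the counts were 34 at 4 h and 47 at 10 h. They were 14 at 4 h without NCFM replicate 3 or without control replicate 2, 19 at 10 h without control replicate 1, and 35 at 4 h without the arrays numbered 1. Calls that held in every alternative numbered 12, 10 and 12, and the genes named below with a call at a given time are among these unless said otherwise.

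In the list for IL-10 receptor signalling, 3 of 10 measured genes were higher at 4 h, 5 at 10 h and 4 at 18 h, and 1 was lower at 10 and 18 h. The list holds Jak1, Tyk2, Stat3, Socs1 and Socs3, and also Il22ra1, Il22ra2, Il20ra, Il20rb and Ifnlr1, which are receptor chains of related cytokines and do not act downstream of the IL-10 receptor. Of the latter, Il20rb was counted as higher at all 3 times and Il22ra2 at 10 h, and Ifnlr1 was the lower gene; apart from Il20rb at 18 h these calls did not hold in every alternative. The median log2 change was 0.25, 0.28 and 0.28, beside -0.01, 0.01 and 0.00 over all genes. Socs3, a Stat3 target that inhibits cytokine receptor signalling, had intensities of 442 to 1206 in controls and 6254 to 9506 in NCFM cells. It rose by 3.49 ± 0.34, 2.95 ± 0.38 and 3.40 ± 0.38 on the log2 scale. Socs1, a related inhibitor, rose by 2.75 ± 0.36, 2.18 ± 0.40 and 2.18 ± 0.40. Stat3 was higher at 10 and 18 h by 0.77 ± 0.23 and 0.82 ± 0.23 (limma adjusted p = 0.0271 and 0.0217). The 10 h call was lost with spike-in centring and without NCFM replicate 2 or 3 or either control of that time (adjusted p up to 0.127 over all alternatives), and the 18 h call without the arrays numbered 1 (0.44, 0.122), with only the groups compared, and without NCFM replicate 3 or control replicate 1 of that time (up to 0.232). Jak1 and Tyk2, the receptor's kinases, were not called at any time.

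Among 16 measured regulators of Il10 transcription, 4 were higher at each time, with 2 lower at 4 h and 1 at each of the other times. The median log2 change was 0.16, 0.34 and 0.23. Rel, an NF-kB subunit, rose by 1.61 ± 0.35 at 4 h, and Map3k8, a kinase upstream of ERK, by 1.68 ± 0.23 at 4 h. Map3k8 was also called higher at 10 h, though not in every alternative. Batf, an AP-1 factor, had intensities of 595 to 823 in controls, 772 to 1065 in NCFM cells at 4 h, and 2413 to 3091 and 2133 to 2214 at 10 and 18 h, where it rose by 1.88 ± 0.16 and 1.65 ± 0.16. Batf was also called higher at 4 h, though not in every alternative. Dusp1, a phosphatase of MAP kinases, rose by 2.22 ± 0.30 at 10 h and 1.98 ± 0.30 at 18 h. Mapk14, the p38 alpha kinase, fell at all 3 times, by -1.27 ± 0.15, -1.90 ± 0.17 and -1.33 ± 0.17. Sp1 fell by -0.82 ± 0.16 at 4 h. Maf, a direct activator of Il10 in other cells, had a change of 1.48 at 10 h that did not pass.

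Among 14 genes of the IL-10 response, 3, 6 and 7 were higher and 1 (Ddit4, at 4 h, not held in every alternative) was lower, with medians of 0.34, 0.50 and 0.62. Socs3 is on this list too. Il1rn, the interleukin 1 receptor antagonist, rose by 1.66 ± 0.20, 1.87 ± 0.22 and 1.92 ± 0.22. Hmox1, which degrades heme, rose by 3.24 ± 0.51 at 18 h, from 1338 to 1559 in controls to 11008 to 15853 in NCFM cells. Hmox1 was also called higher at 10 h, though not in every alternative. These genes are also known to respond to other stimuli than IL-10.

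**Figure D4:**
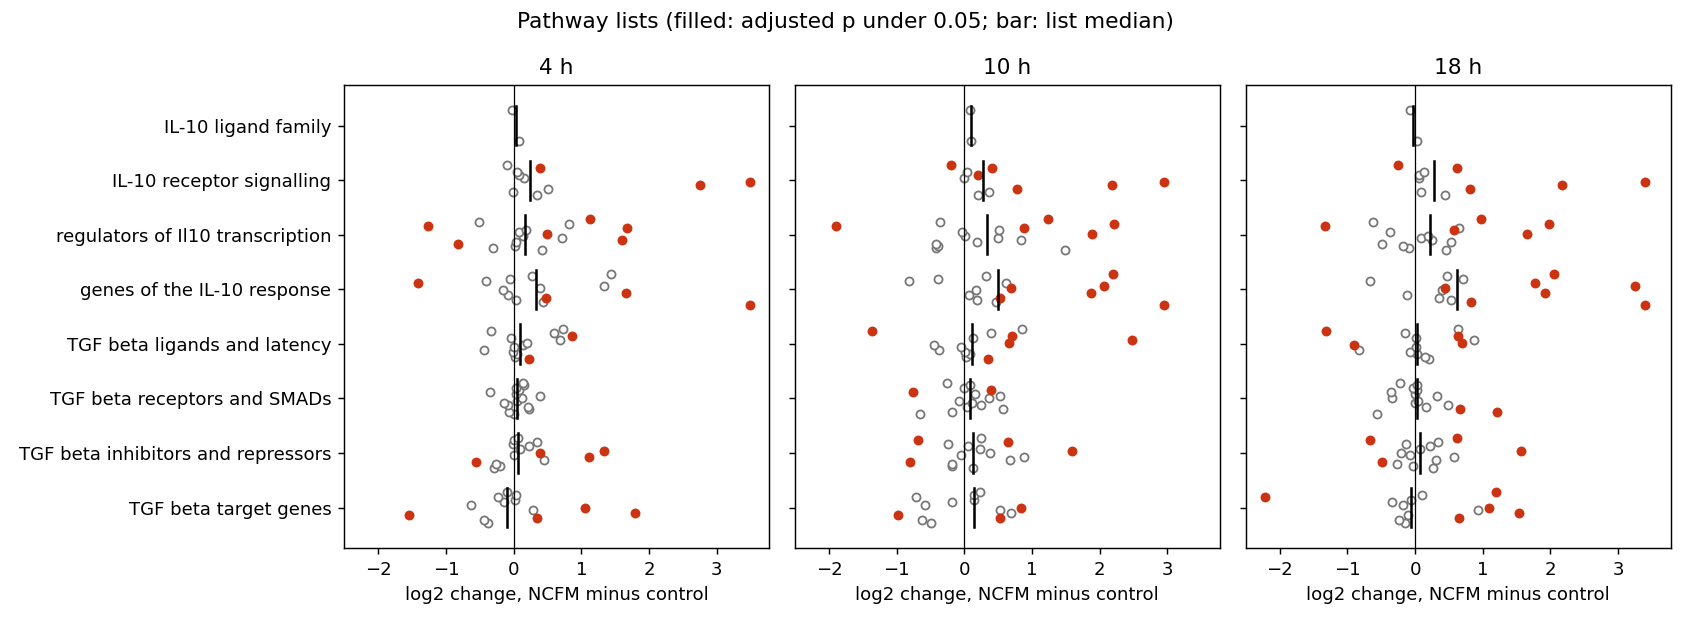
Log2 change of NCFM minus control (x axis) for each measured gene of the 8 pathway lists, in a panel for each time; filled points passed in limma at adjusted p under 0.05, open points did not, and the vertical bar is the median of the list. In the IL-10 response list 7 of 14 genes are filled to the right of 0 at 18 h, and in the list of TGF beta receptors and SMADs 2 of 15 are.

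On the TGF beta side, 2, 4 and 2 of 14 measured ligand and latency genes were higher, and 0, 1 and 2 lower (medians 0.09, 0.11 and 0.02). Itgb8, the integrin chain that releases TGF beta from its latent form, had intensities of 58 and 76 in 10 h controls and 281 to 475 in NCFM cells, and rose (limma adjusted p = 8.05e-04). These controls lie close to the 5th percentile of the arrays (65 to 67), so the size of the rise is uncertain. With each control array raised to at least its 5th percentile, which changed 1 of them, the ratio of the geometric means was 5.24. No interval was computed for this ratio. Furin, a protease that processes the TGF beta precursor, rose by 0.86 ± 0.16 at 4 h. Furin was also called higher at 10 and 18 h, though not in every alternative. Nrros, which holds latent TGF beta on myeloid cells, fell by -0.90 ± 0.16 at 18 h.

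Of 15 other receptor and SMAD genes, none was called at 4 h, 2 at 10 h (1 higher, 1 lower) and 2 at 18 h (both higher). The medians were 0.05, 0.09 and 0.03. Acvrl1, a type I receptor of the family, rose by 1.21 ± 0.28 at 18 h, from 431 and 457 in controls to 771 to 1225. Smad2 had changes of 0.03, 0.16 and 0.00, which did not pass. Smad4 was lower at 10 h by -0.76 ± 0.21 (limma adjusted p = 0.0199), a call lost with arrays 1 and 2 and the replicate block and without NCFM replicate 3 or control replicate 1 of that time (adjusted p up to 0.176 over all alternatives).

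Among 15 inhibitors and repressors, 3, 2 and 2 were higher and 1, 2 and 2 lower (medians 0.06, 0.13 and 0.08). Ski, a repressor of SMAD complexes, fell by -0.56 ± 0.07, -0.80 ± 0.08 and -0.49 ± 0.08, its NCFM arrays (578 to 717) all lying below the controls (878 to 1109). Within a single time, 22.7%, 28.9% and 26.1% of all genes separated downward. Pmepa1, a TGF beta target that binds receptor-activated SMADs, rose by 1.59 ± 0.36 at 10 h. Pmepa1 was also called higher at 4 and 18 h, though not in every alternative. Among 13 measured target genes, 3, 2 and 4 were higher and 1 was lower at each time (medians -0.09, 0.15 and -0.05). Id3 fell by -1.54 ± 0.19 at 4 h and -0.98 ± 0.21 at 10 h and had -0.11 ± 0.21 at 18 h, where its controls read 182 and 280, beside 575 to 823 at 4 h. Id2 rose by 0.64 ± 0.11 at 18 h and Cdkn1a by 1.79 ± 0.31 at 4 h. Id2 was also called higher at 4 and 10 h and Cdkn1a at 18 h, though these calls did not hold in every alternative.

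The genes whose log2 intensity most resembled that of each gene over the 16 arrays were found among about 2400 genes whose group means spanned at least 1 log2 unit. The correlations are descriptions, since the arrays share treatment and array number. For Il10 they were Bambi-ps1 (Pearson r 0.954), Lrp11 (0.953), Dnaja1 (0.948), Sh3bp5 (0.945) and Ascc3 (0.944). Bambi-ps1 is a pseudogene whose probe set may share sequence with Bambi. Its intensity was 156 to 178 in controls, 267 to 424 in NCFM cells at 4 h, 629 to 1501 at 10 h and 447 to 1054 at 18 h. Il10ra was most like Bcl2l11 (0.960) and A630072M18Rik (0.928), and Il10rb like Maf (0.883) and Tlr7 (0.866). Tgfb1 was most like Psme3 (0.957) and Cluh (0.948). Tgfbr1 was most like Cd300lb (0.979), with intensities of 1211 to 3702 in controls and 227 to 402 in NCFM cells, and D10Wsu102e (0.977). Tgfbr2 was most like Myo7a (0.989) and Frrs1 (0.976), Smad3 like Igfbp4 (0.926) and Nr1d2 (0.878), and Smad7 like Lcn2 (0.892) and Dnajc1 (0.890). Lcn2, a secreted siderophore-binding protein, had 3119 to 5078 in controls and 3405 to 6782, 8461 to 14238 and 13806 to 19312 in NCFM cells at 4, 10 and 18 h.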

How the data were processed

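Transcript levels in 6 groups were read from a table of 16 single-colour arrays. Its deposited values are linear intensities of 45101 probe sets, already on a common scale judging by array medians of 162 to 167. How the authors summarized, background-corrected and normalized them was not given in the sources used here. A single gene is named for 34945 probe sets and several genes for 932, while 64 are controls and 9160 have no annotation entry. Intensities were converted to log2. Gene symbols were updated by identifier, and a gene was represented by its brightest probe set (mean over all arrays), leaving 18193 genes, 9010 of which have several. RefSeq (GRCm38.p6) served for names and promoter sequence only.

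limma 3.58.1 (R 4.3.3) fitted group means for every gene to all arrays together (lmFit, eBayes, 10 residual degrees of freedom). The two-sided p-values were corrected with the Benjamini-Hochberg method across all genes or, where said, all probe sets, with 0.05 as the threshold for a call. The fit was tested on simulated data with independent noise for each array. That simulation leaves out deviations shared by arrays of equal number, so it does not bear on their effect on the p-values. Figures used Python 3.11.15 and matplotlib 3.10.9.

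The members and lists were chosen with earlier results of these data known. Named genes are the 8 members, any measured gene of the lists, and the 5 genes for Il10 and 2 for each other member with the highest correlation.

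The main fit took no account of replicate numbers. It called 3335, 4488 and 4320 genes at 4, 10 and 18 h, beside 4880, 5666 and 5557 with the replicate block. For the block, equal replicate numbers were taken as pairs on the evidence of the data alone. Arrays of equal number deviated from their group means together (36 pairs, correlation 0.19 to 0.75, median 0.42), whereas 70 pairs of unequal number ranged from -0.75 to 0.73, with 13 over 0.1. A control group of 2 has mirrored deviations, so its pairs are not independent.

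The alternatives changed the normalization (quantile, median centring, spike-in centring), subtracted background, averaged probe sets or tested them all, left out dim genes, used a trend with robust variance, added a pseudocount of 16, fitted only the compared groups, added a replicate block, took arrays 1 and 2 with that block, or left out 1 array. Leaving out the 6 arrays numbered 1 was chosen after seeing the data. Probe sets naming no single gene were left out.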

Additional observations from a re-analysis of the deposited data

Results flagged for a closer look

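A difference between times in the NCFM effect was itself tested for every gene, and it passed for 1 gene of the axis and 5 listed pathway genes. Values are log2 differences of the effect with the SE and the limma adjusted p. For Smad7 the 18 h effect exceeded the 4 h effect by 0.571 ± 0.118 (limma adjusted p = 0.0216), with a range of 0.0114 to 0.314 over the alternatives. For Batf the 10 h effect exceeded the 4 h effect by 1.39 ± 0.21 (limma adjusted p = 0.0189), and did not pass without NCFM replicate 2 at 10 h (0.0542), control replicate 2 (0.057) or 3 (0.0529) at 4 h or control replicate 1 at 10 h (0.0537), nor with arrays 1 and 2 and the replicate block (0.104). For Batf the 18 h effect exceeded the 4 h effect by 1.17 ± 0.21 (limma adjusted p = 0.0111), and this was 0.0924 with spike-in centring and 0.0565 with arrays 1 and 2 and the replicate block. For Ddit4, which was lower at 4 h (274 to 437 against 683 to 1155 in controls) and higher at 18 h (2072 to 4077 against 801 and 940), the difference was 3.19 ± 0.56 (limma adjusted p = 0.0103) and it passed in all 29 alternatives. Its 4 h call was lost without the arrays numbered 1 (-1.36, 0.0503) and without NCFM replicate 3, control replicate 1 or control replicate 2 of that time (limma adjusted p up to 0.0829 over all alternatives), and its 18 h call without control replicate 1 of that time (0.0524). For Nrros it was -1.04 ± 0.21 (limma adjusted p = 0.0198), with adjusted p of 0.0563 without NCFM replicate 2 at 18 h, 0.0591 without control replicate 2 at 4 h and 0.0653 without control replicate 2 at 18 h. For Id3 it was 1.43 ± 0.28 (limma adjusted p = 0.0164), or 0.0611 without control replicate 1 at 18 h. For Runx3 it was 1.29 ± 0.30 (limma adjusted p = 0.0375), a call lost in 14 of 29 alternatives, with adjusted p up to 0.112. Among them were the arrays numbered 1 left out (0.86, 0.0662), spike-in centring (1.05, 0.112), only the groups compared (0.092), any NCFM or control array of 4 h left out, NCFM replicate 2 or 3 at 10 h, NCFM replicate 2 at 18 h and either control at 18 h. No group had more than 3 arrays, so no sample was tested as an outlier.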

How the results depend on the processing

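The 8 genes were tested in 9 comparisons each, and the 72 values were recomputed in 28 or 29 ways. For a given comparison many of these ways leave the estimate itself unchanged, so they are not independent checks. Of 2079 alternative values, 1997 kept their side of the threshold, 30 lost a call, 51 gained one and 1 changed sign, the Smad7 rise from 4 to 10 h within NCFM cells, which was -0.000757 with spike-in centring. A further 87 values changed sign where neither fit passed. The calls of Il10 at 10 and 18 h, Tgfb1 at 10 h, Tgfbr1 at each time, Tgfbr2 at 4 and 10 h and Smad7 at 18 h held throughout. Counts are of all genes, of the 8 genes or of the listed pathway genes called. With the replicate block, pathway genes numbered 34 at 4 h and 47 at 10 h. The 10 minus 4 h difference then gave 457 genes and 2 of the 8, the 18 minus 10 h difference 82 genes, and the 18 minus 4 h difference 1665 genes and 3 of the 8. Within NCFM cells, 5 of the 8 were called from 4 to 10 h and 1 from 10 to 18 h. The block changed no call among the 8 genes other than those given in the report. Without the arrays numbered 1, the counts were 35 pathway genes at 4 h, 8 of the 8 genes at 18 h, 309 genes and 1 of the 8 for 10 minus 4 h, 33 genes for 18 minus 10 h, 1593 genes and 2 of the 8 for 18 minus 4 h, and 5 and 1 of the 8 within NCFM cells. That leaves the 10 and 18 h controls with 1 array each, assumed to vary like the other groups. With spike-in centring, pathway genes numbered 39 at 4 h, the 10 minus 4 h difference gave 9746 genes and 4 of the 8, the 18 minus 10 h difference 2 genes, and the 18 minus 4 h difference 2 of the 8. With only the groups compared, the 18 h counts were 2449 genes, 3 of the 8 and 18 pathway genes. Trend and robust variance gave 55 genes for 10 minus 4 h, the mean of probe sets 0 genes for 18 minus 10 h, where the main fit had 1 and 1358 had an unadjusted limma p under 0.05, and leaving out dim genes 2 of the 8 for 18 minus 4 h. Arrays 1 and 2 with the block gave 22 genes for 10 minus 4 h, 12 for 18 minus 10 h, 0 of the 8 for 18 minus 4 h and 1 of the 8 from 4 to 10 h in NCFM cells. The cause of these changes was not tested. With 1 array left out at a time, genes called ranged over 2138 to 3653 at 4 h, 2134 to 4755 at 10 h, 2868 to 4503 at 18 h, 12 to 180 for 10 minus 4 h, 1 to 30 for 18 minus 10 h and 302 to 791 for 18 minus 4 h. Of the 8 genes, 2 to 4, 4 to 5 and 3 to 6 were called at 4, 10 and 18 h, 0 to 1, 0 and 0 to 2 for the differences in the same order, 1 to 4 and 0 to 1 within NCFM cells, and 0 between controls. Pathway genes ranged over 14 to 25, 19 to 33 and 22 to 33. Control levels of Il10 near the background limit how far its fold change can be read.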
